A study of Mus musculus with 29 samples.

Results

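Transcripts of 9 genes that mark macrophages and other myeloid cells were followed through lung development in alveolar septa of the mouse. The genes were chosen by name, with earlier results of these data known. They comprise the growth factor receptor genes Csf2ra, Csf2rb and Csf1r, the scavenger and surface receptor genes Marco, Mrc1 and Cd68, the genes of the secreted proteins Chil3 and Ear2, and the integrin gene Itgax. Another name on the list, Adgre1x, matched no gene symbol and is not analysed here. The 9 genes were found among 22779 gene IDs in the table, and all 9 passed the minimum for testing, which was 4 libraries with an FPKM of 1 or more. FPKM is the number of fragments scaled by transcript length and by library size, so it can be compared between genes of different length.

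The libraries were made from laser-captured septa of frozen C57BL/6 mouse lungs, 1 animal per library, with no treatment and no altered gene named in the labels. There were 29 libraries of 15 ages, 2 at each age and 1 at P28. The prenatal group held 4 embryos of E16.5 and E18.5. The postnatal saccular group held 8 pups, aged from P0.5 to P2.5. The early alveolar group held 8 pups of P4, P5, P7 and P10, and the late alveolar group held 9 pups of P13.5, P15, P19, P23 and P28. The labels do not give litters, so animals of one age may share a litter. They name both sexes in each group, but in the late alveolar group only the P23 pups are labelled male. The 2 animals of an age share a labelled sex at some ages and differ at others. Sex was not part of any fit, and its part in the differences was not tested.

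The stepwise spacing of low FPKM values gave an estimated depth of about 3580000 to 8230000 fragments per library. The libraries of P10 pup a, P19 pup d and P19 pup f stood apart: they list 416, 578 and 242 of 8623 expressed genes at 0, against 1 to 112 in the other 26 libraries. A 0 in them may be a failed estimate, so members with zeros are given by their values and without a mean. Each count of called members is also given without these 3 libraries. Markers of septal cells were present: all 6 alveolar type 1, all 6 alveolar type 2 and all 6 septal fibroblast genes examined reached an FPKM of 1 in at least 15 libraries. So did all 6 conducting airway, all 6 lymphatic and all 6 blood endothelial genes, so this does not show that the captures held septa alone.

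Alveolar macrophages live on the air side of the alveolus, where they clear surfactant and inhaled particles. They develop from fetal monocytes that enter the lung before birth and mature under granulocyte-macrophage colony-stimulating factor (GM-CSF), which is made by alveolar type 2 cells. GM-CSF acts through a receptor of an alpha chain, encoded by Csf2ra, and a shared beta chain, encoded by Csf2rb. Macrophage colony-stimulating factor (M-CSF) and interleukin 34 act through the receptor encoded by Csf1r. Marco, Chil3, Ear2 and Itgax are high in alveolar macrophages, Mrc1 is also found in interstitial macrophages and in some endothelial cells, and Cd68 is a lysosomal protein of all macrophages. In tissue RNA such as this, fewer cells of a type and less RNA per cell cannot be told apart.

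The 250 bases before the transcription start are shown for 3 members with unlike courses: Csf2ra, which was higher after birth, Marco, which was low and variable, and Chil3, which was higher in the late alveolar stage. They are RefSeq sequences of build GRCm38.p6, written 5′ to 3′ on the strand of the gene. The start used for Csf2ra lies within the annotated gene, which ends at 61228461, so part of its sequence is inside the gene. Capitals mark GAGGAA, the PU box bound by the myeloid factor PU.1.
Csf2ra, chr19:61228419-61228668, minus strand: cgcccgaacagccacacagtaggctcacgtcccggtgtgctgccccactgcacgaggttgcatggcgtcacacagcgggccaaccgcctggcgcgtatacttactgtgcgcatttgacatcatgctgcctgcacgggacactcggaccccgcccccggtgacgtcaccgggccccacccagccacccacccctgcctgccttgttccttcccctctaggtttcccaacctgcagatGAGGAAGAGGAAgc
Marco, chr1:120505025-120505274, minus strand: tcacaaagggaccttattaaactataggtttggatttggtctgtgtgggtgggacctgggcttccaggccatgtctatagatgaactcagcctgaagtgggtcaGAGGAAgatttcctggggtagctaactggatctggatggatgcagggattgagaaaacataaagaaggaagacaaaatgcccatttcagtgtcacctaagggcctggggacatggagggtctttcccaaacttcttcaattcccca
Chil3, chr3:106167565-106167814, minus strand: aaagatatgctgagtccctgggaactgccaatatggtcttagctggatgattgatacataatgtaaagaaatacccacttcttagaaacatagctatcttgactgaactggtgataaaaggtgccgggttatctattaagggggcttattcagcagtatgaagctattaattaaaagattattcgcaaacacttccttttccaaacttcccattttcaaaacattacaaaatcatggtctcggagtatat
GAGGAA was searched on both strands in the window from 250 bases before to 50 after the start. It was found for 4 of the 7 members whose promoter was read (Marco, Mrc1, Csf2ra and Cd68), against 28.3% of 32851 mouse promoters. In Csf2ra a pair of copies stand next to each other, starting at positions -14 and -8 from the start used. Both copies lie inside the annotated gene. The start used for Itgax is within its annotated gene as well. No GAGGAA was found for Chil3, Ear2 and Itgax. TTGCNNAA, a C/EBP-like pattern, was found in the windows of Cd68 and Ear2 only among these 7 and in 10.8% of all promoters. These matches are descriptions of letters and were not tested as binding sites.

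The first comparison asked what differed between the prenatal lung and the first days of air breathing. Csf2ra and Csf2rb were higher in the postnatal saccular group, and 8 of 9 members had higher mean values on the log2(FPKM + 1) scale. Mrc1 was the exception, with lower values after birth. Differences were tested with limma on log2(FPKM + 1) with Benjamini-Hochberg adjustment over 14616 genes, and a gene is called at an adjusted p under 0.05. Csf2ra and Csf2rb were the 2 of 9 members called higher, where 9.11% of all genes tested were called higher, 6.81% lower and 15.9% in either direction. At an unadjusted p under 0.05 there were 7 of 9 higher and Mrc1 lower, where 14.9% of all genes were higher and 14% lower by that measure. The median difference over the 9 members was 1.33 on the log2 scale, against 0.00 over all genes tested. Without the 3 libraries rich in zeros 5 members were called, 4 higher and Mrc1 lower, where 1595 of 14534 genes were called higher and 1359 lower.

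Csf2ra had FPKM values of 4.56 and 5.64 at E16.5 and 1.92 and 2.77 at E18.5. In the postnatal saccular libraries it ran from 4.88 to 17.4 with a median of 11.9. Only P1.5 pup d, the lowest, lay within the prenatal range. The mean was 3.72 ± 1.68 FPKM (SD, n = 4) before birth and 12.2 ± 4.54 FPKM (SD, n = 8) after it, a difference of 1.47 on the log2 scale (SE 0.39, adjusted p = 0.00926). The call held with each of the 29 libraries left out.

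Csf2rb had 1.43 and 1.27 FPKM at E16.5 and 4.59 and 2.53 FPKM at E18.5. After birth it ran from 4.03 to 13.1 with a median of 7.18, and the highest values, 13.1 and 10.4, were those of the P2.5 pups. Its mean of 2.45 ± 1.53 FPKM (SD, n = 4) in embryos rose to 7.57 ± 3.13 FPKM (SD, n = 8), by 1.33 on the log2 scale (SE 0.46, adjusted p = 0.0470). This call was close to the threshold. It was lost without any one of 15 libraries (E16.5 embryos 9 and 2, E18.5 embryo 3, P0.5 pup e, P1.5 pups e and d, P2.5 pups h and i, P4 pups a and e, P5 pup b, P7 pups c and d, P10 pup f or P23 pup f), with an adjusted p of up to 0.153. With E18.5 as the only prenatal age the difference was 0.87 and was not called (adjusted p = 0.463). Csf2rb was also not called at a pseudocount of 0.1 (adjusted p = 0.0575), without a filter (0.0581) or with median ratio scaling (0.0535). Csf2rb shares 95.1% of 3108 aligned bases with Csf2rb2, which encodes a second beta chain for interleukin 3, so fragments could have been divided between them. Csf2rb2 had medians of 0.467, 2.19, 1.08 and 1.73 FPKM from the prenatal to the late alveolar group and was not called in any of the 4 stage comparisons.

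Csf1r had 6.50, 4.27, 5.80 and 6.02 FPKM in the 4 embryos and 8.18 to 14.5 FPKM, with a median of 11.3, in the postnatal saccular group. The groups did not overlap. The difference of 0.85 on the log2 scale (SE 0.38) did not pass with all libraries (adjusted p = 0.128). It passed without P19 pup d alone (adjusted p = 0.0155), whose Csf1r value of 1.51 FPKM was the lowest of 29. The prenatal and saccular groups of Itgax, the integrin alpha chain of CD11c, did not overlap either. Itgax had 0.189, 0.304, 0 and 0.0583 FPKM in the embryos and 0.568 to 2.97 FPKM, with a median of 1.69, after birth. Its difference of 1.16 (SE 0.51) did not pass (adjusted p = 0.126). These were 2 of 9 members whose groups did not overlap, both higher, where 5.55% of all genes tested were higher and 4.52% lower without overlap.

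Mrc1, the mannose receptor CD206, had the opposite order. Its embryos had 15.3 and 18.0 FPKM at E16.5 and 18.9 and 12.7 FPKM at E18.5, and only P0.5 pup e, with 14.1 FPKM, lay within that range among the postnatal saccular libraries, which went down to 4.32. The mean was 16.2 ± 2.80 (SD, n = 4) before and 7.86 ± 3.08 (SD, n = 8) FPKM after birth. The difference of -1.02 on the log2 scale (SE 0.44) did not pass with all libraries (adjusted p = 0.121). It passed without P19 pup f alone (adjusted p = 0.0419) and when all 3 libraries rich in zeros were left out (adjusted p = 0.0108).

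Marco, a scavenger receptor for bacteria and particles, was listed at 0 in both E16.5 embryos and at 0.523 and 0.894 FPKM, about 5 and 7 fragments, at E18.5. A count of 3 fragments would be 0.218 to 0.501 FPKM across the libraries, so its absence at E16.5 limits Marco only to below that level. Postnatal saccular libraries ran from 0 in P1.5 pup d to 6.22 FPKM in P1 pup d, with a median of 2.44. Cd68 had 1.19 and 1.44 FPKM at E16.5 and 10.0 and 3.94 FPKM at E18.5, so that 1 of 4 embryos was near the postnatal saccular median of 10.3 FPKM. P1.5 pup d had a Cd68 value of 0.909 FPKM, about 4 fragments, where the other 7 postnatal saccular pups had at least 7.79 FPKM. Neither Marco (difference 1.34, SE 0.59, adjusted p = 0.122) nor Cd68 (difference 1.14, SE 0.56, adjusted p = 0.169) was called.

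Ear2, a ribonuclease of the eosinophil-associated family, had 1.44 FPKM and a value near 0 at E16.5, and 66.3 and 15.2 FPKM at E18.5. The E18.5 embryo 4 value was the highest of all 29 libraries. The 8 postnatal saccular libraries ran from 16.6 to 57.7 FPKM with a median of 37.7, and the difference of 2.28 (SE 0.98) did not pass (adjusted p = 0.112). Ear2 passed without E18.5 embryo 4 (adjusted p = 0.0234). Its values are uncertain because Ear1 shares 96.4% of 713 aligned bases with it, Ear10 94.5% and Ear6 88.7%, and 2 libraries (E16.5 embryo 2 and P19 pup d) hold values of 8.54e-06 and 1.37e-06, far below the worth of 1 fragment. Ear10 was listed at 0 in all 29 libraries.

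**Figure D1:**
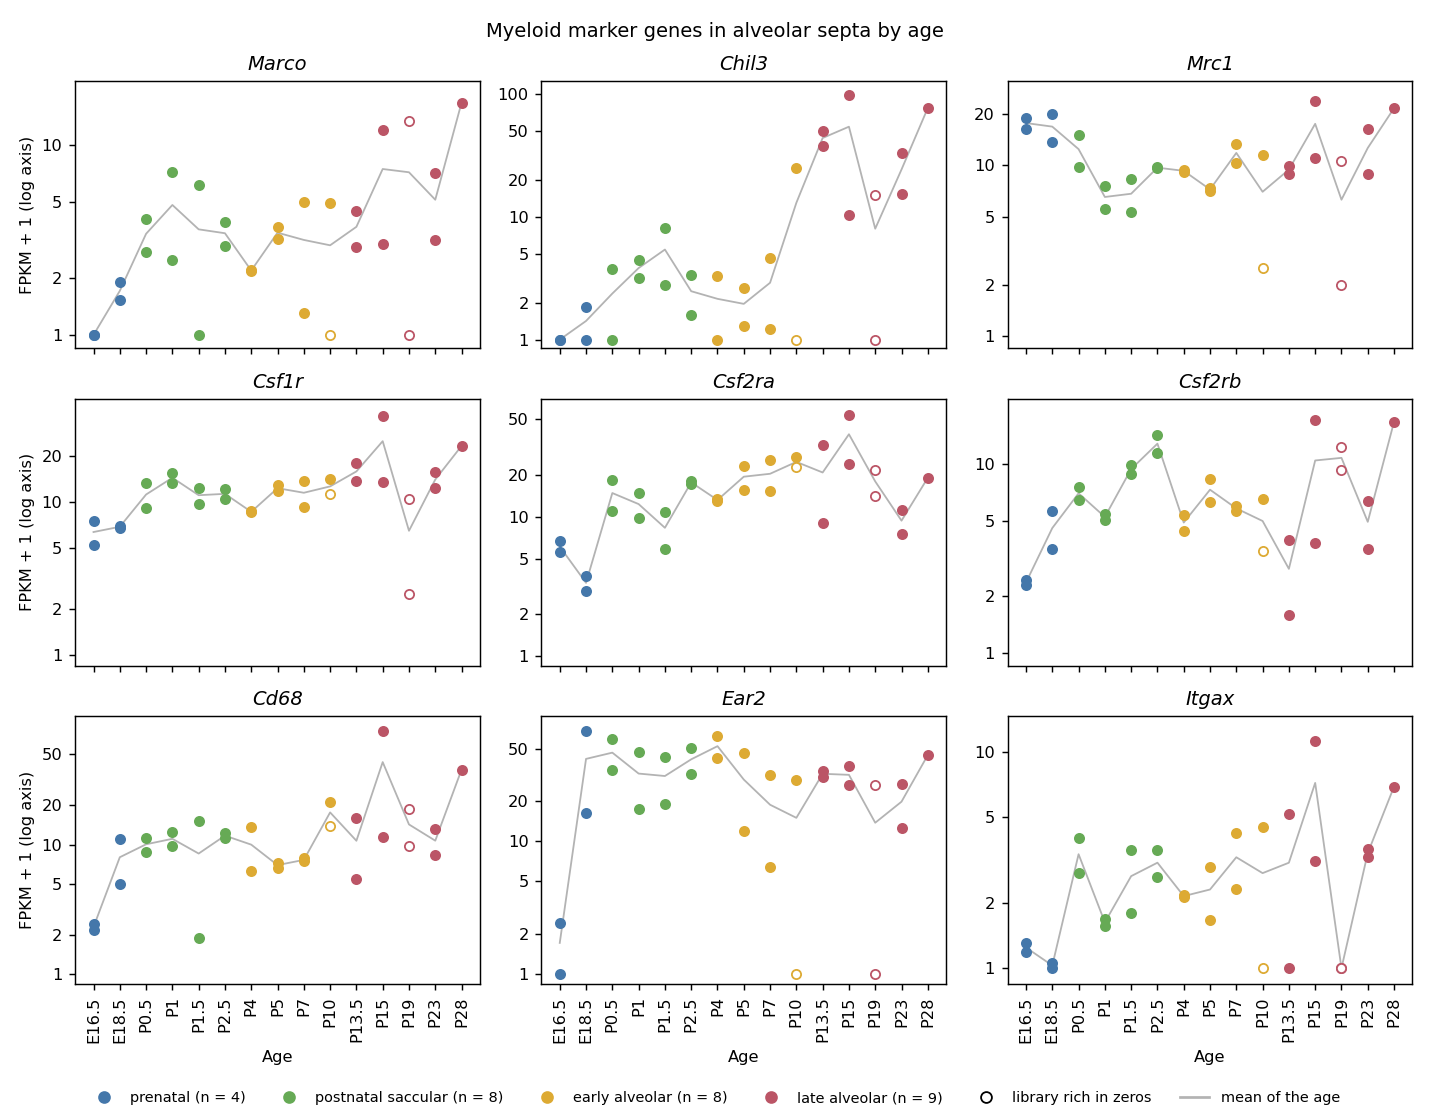
FPKM + 1 on a log axis against age for the 9 genes, with a point for each of 29 libraries, colours for the 4 groups, open points for the 3 libraries rich in zeros and a grey line through the mean of each age. Mrc1 starts at its prenatal values of 12.7 to 18.9 FPKM while Marco, Chil3 and Itgax start near 0, and Chil3 leaves its early range from P10.

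Between the postnatal saccular and early alveolar stages, no difference of a member passed the test. Of the 9, 0 were called by limma and 0 had an unadjusted p under 0.05, where 13.1% of all genes did. Of all genes tested, limma called 1.46%, with 0.527% higher and 0.937% lower. The count was also 0 without the 3 libraries rich in zeros and under every other setting tried. Differences on the log2 scale ran from -1.01 for Ear2 to 0.58 for Csf2ra. For Csf2ra the medians were 11.9 and 18.0 FPKM, and the difference of 0.58 had an SE of 0.32 (adjusted p = 0.450). For Marco the medians were 2.44 and 1.70 FPKM, and for Cd68 they were 10.3 and 6.62 FPKM.

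The third comparison, late against early alveolar, was carried by Chil3. Chil3 encodes Ym1, a chitinase-like lectin secreted by alveolar macrophages and, elsewhere, by neutrophil precursors. Among the embryos it was listed at 0 in 3 and at 0.836 FPKM, about 6 fragments, in E18.5 embryo 4. The postnatal saccular libraries had 2.74 and 0 FPKM at P0.5, 2.17 and 3.47 at P1, 7.02 and 1.77 at P1.5, and 0.592 and 2.36 at P2.5. The early alveolar values were 2.29 and 0 FPKM at P4, 0.281 and 1.63 at P5, 0.210 and 3.59 at P7, and 0 and 23.9 at P10. Through P7 no library was above the 7.02 FPKM of P1.5 pup e.

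In the late alveolar group Chil3 had 48.6 and 36.5 FPKM at P13.5, 96.2 and 9.33 at P15, 0 and 13.9 at P19, 14.1 and 32.1 at P23, and 75.3 at P28. All of these libraries except P19 pup d were above every library up to P7. The group medians were 0, 2.26, 0.953 and 32.1 FPKM in order of age. The late alveolar group exceeded the early alveolar group by 3.12 on the log2(FPKM + 1) scale (SE 0.67, adjusted p = 0.00232), where 11.4% of all genes were called, 3.89% higher and 7.47% lower. The call held with each library left out, with differences from 2.85 to 3.67.

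Chil3 was the 1 of 9 members called between these stages. Of 9 differences 8 were above 0 with all libraries, and 4 without P15 pup c and P28 pup c, where Csf1r, Csf2rb, Ear2 and Itgax were below 0. Without the 3 libraries rich in zeros Csf1r was called as well, with a difference of 0.68 (adjusted p = 0.0325). Marco had medians of 1.70 and 3.53 FPKM and a difference of 1.00 (SE 0.47, adjusted p = 0.178). The near copy Chil4 shares 94.3% of 1540 aligned bases with Chil3. Chil4 was listed at 0 in 27 of 29 libraries and had 0.186 FPKM in P13.5 pup c and 7.91 FPKM in P10 pup a, the library in which Chil3 was at 0. Fragments of both genes could have been exchanged there, so the Chil3 value of P10 pup a is uncertain.

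**Figure D2:**
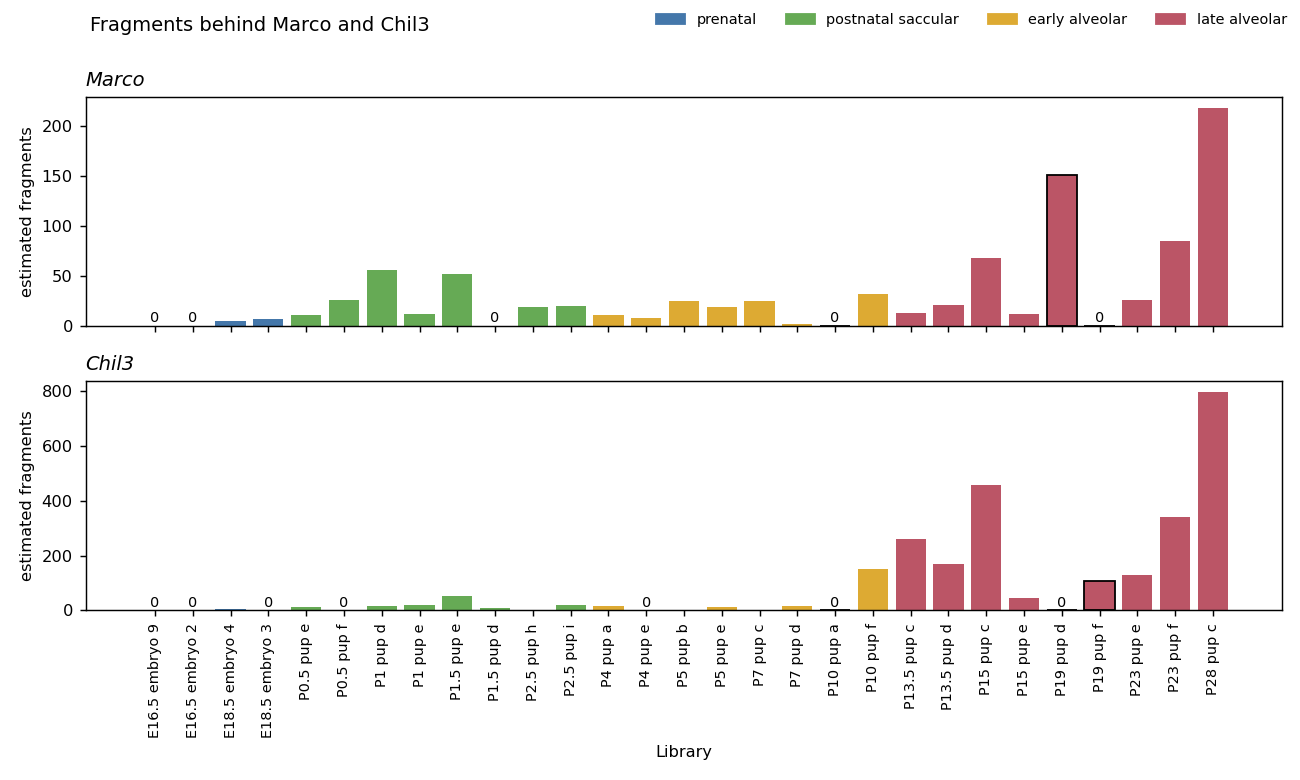
Estimated numbers of fragments behind Marco (top) and Chil3 (bottom) in each of 29 libraries in order of age, with bars coloured by group, black outlines for the 3 libraries rich in zeros and 0 written where no fragment was counted. Chil3 reaches about 459 fragments in P15 pup c and 799 in P28 pup c against at most 54 up to P7, and Marco reaches 218 in P28 pup c. Fragment numbers are not scaled by library depth. By FPKM, Chil3 was higher in P15 pup c (96.2) than in P28 pup c (75.3).

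Over the whole course, from the prenatal to the late alveolar stage, 6 of 9 members were called higher and none lower. Of all genes tested, 12.7% were called higher, 18.3% lower and 31% in either direction. The members were Csf2ra, Chil3, Marco, Cd68, Itgax and Csf1r. The median difference over the 9 members was 1.44, against -0.16 over all genes tested. The latter shift was -0.01 after quantile normalization, under which 51.7% of the calls over all genes were higher, against 41.0% as reported. Without the 3 libraries rich in zeros 7 members were called higher, with Ear2 added, where 2015 of 14534 genes were called higher. With only E18.5 before birth, which leaves 2 embryos, Csf2ra and Chil3 remained called, where 14.5% of all genes were called.

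Csf2ra ran from 6.49 to 52.9 FPKM with a median of 18.0 in the late alveolar libraries, and the lowest of them was above the highest embryo at 5.64 FPKM, as for 5.33% of all genes. Its difference was 1.99 on the log2 scale (SE 0.38, adjusted p = 1.97e-04). Chil3 differed by 4.22 (SE 0.83, adjusted p = 2.81e-04). Marco ran from 0 to 15.8 FPKM with a median of 3.53 in the late alveolar group, a difference of 1.97 (SE 0.58, adjusted p = 0.00947).

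Cd68 ran from 4.46 to 73.9 FPKM with a median of 12.1, a difference of 1.92 (SE 0.54, adjusted p = 0.00748). The late range of Cd68 overlapped with E18.5 embryo 4. Itgax ran from 0 to 10.2 FPKM with a median of 2.26, a difference of 1.36 (SE 0.50, adjusted p = 0.0397). Csf1r ran from 1.51 to 35.6 FPKM with a median of 12.8, a difference of 1.03 (SE 0.37, adjusted p = 0.0327).

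The calls of Csf1r and Itgax rested on few animals. Csf1r was lost without any one embryo, P15 pup c or P28 pup c, with an adjusted p of up to 0.102. Itgax was lost without any one embryo, P13.5 pup d, P15 pups c and e, P23 pups e and f or P28 pup c, with an adjusted p of up to 0.0897. Csf2rb (difference 0.98, SE 0.45, adjusted p = 0.0992), Ear2 (1.44, SE 0.96, adjusted p = 0.262) and Mrc1 (-0.70, SE 0.44, adjusted p = 0.231) were not called. Csf2rb was called without P13.5 pup c (adjusted p = 0.0199), whose value of 0.583 FPKM was the lowest of 29.

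**Figure D3:**
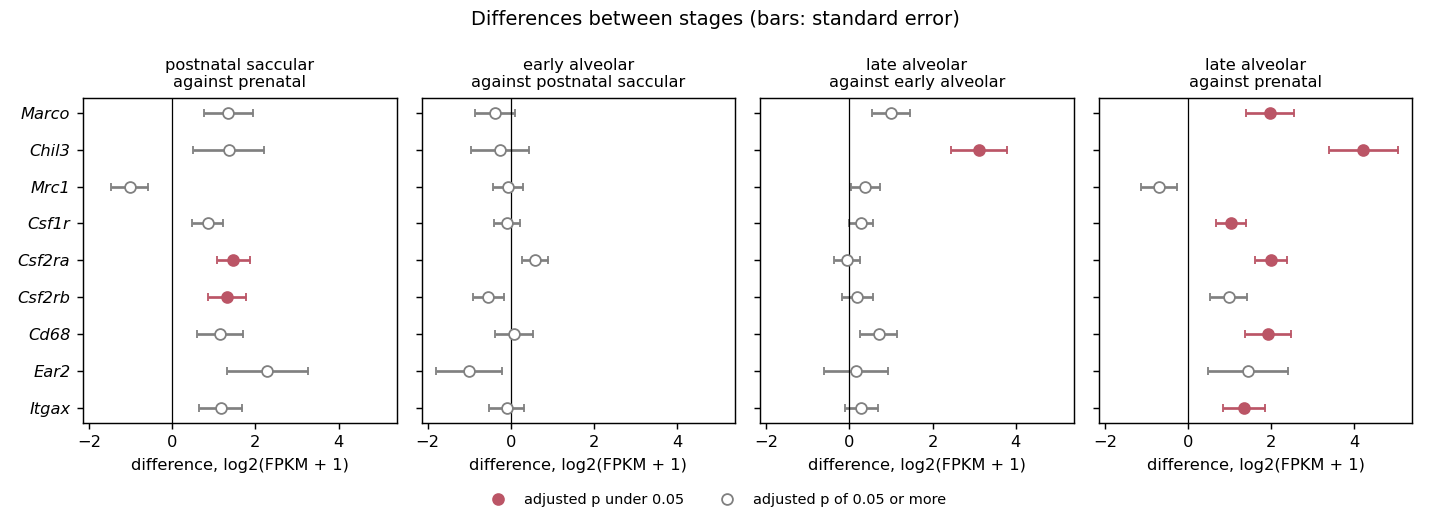
Differences between groups on the log2(FPKM + 1) scale for the 9 genes in the 4 stage comparisons, with bars of 1 SE and filled red points for an adjusted p under 0.05. Of 9 members, 2 are filled at birth, 0 between the postnatal saccular and early alveolar stages, Chil3 alone between early and late alveolar, and 6 over the whole course.

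Age was also tested as a continuous course, with limma's F test of a spline with 3 degrees of freedom. It called 6 of 9 members, where 30.7% of all genes were called. These were Csf2ra (adjusted p = 0.00151), Chil3 (0.00203), Cd68 (0.0214), Csf2rb (0.0240), Ear2 (0.0248) and Marco (0.0352). Csf1r, Mrc1 and Itgax did not pass with all libraries and passed without the 3 libraries rich in zeros, where the count was 9. In the 25 postnatal libraries alone, Chil3 was the member called, where 2193 of 14349 genes were called. Csf2ra and Chil3 kept their call with each library left out. Cd68 and Ear2 lost it without either E16.5 embryo (adjusted p up to 0.105 and 0.182), Csf2rb without either of these or P28 pup c (up to 0.0882), and Marco without any one embryo, P23 pup f or P28 pup c (up to 0.150).

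The values of the members were correlated in part. Over the 29 libraries, 35 of 36 pairs of members had a positive Pearson's r on the log2(FPKM + 1) scale, with a median of 0.38. Over all pairs of the 14616 genes in the same libraries 53.6% were positive, with a median of 0.025. A permutation test with 100000 resamples called 15 of 36 pairs after adjustment over the 36, and 9 by Spearman's rho. The lowest r among the 15 was 0.43, and 5.7% of all pairs of genes were at or above it. The highest values were those of Csf1r with Itgax (r = 0.70, adjusted p = 3.6e-04, rho = 0.60, adjusted p = 0.00840) and Chil3 with Csf1r (r = 0.69, adjusted p = 3.6e-04, rho = 0.71, adjusted p = 0.00108). Without the 2 libraries farthest from the median of the first gene, these were r = 0.60 and r = 0.56. The lowest was r = -0.21 for Mrc1 with Csf2ra. In the 25 postnatal libraries 6 pairs passed by Pearson's r, with a median r of 0.31, and 1 by Spearman's rho, with a median rho of 0.24. Without the 3 libraries rich in zeros 21 pairs passed by Pearson's r, with a median r of 0.49, and 12 by Spearman's rho. The permutations moved libraries across ages, so these tests do not separate a shared age course from other shared differences.

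Part of this was seen between animals of 1 age. The difference between both animals was taken for each of the 14 ages with a pair, which removes the age course. Its correlation between members was taken without subtracting the mean difference, so it is not Pearson's r as used above. It had a median r of 0.37 and was positive for 29 of 36 pairs, against 0.015 and 51.9% over all pairs of genes. Without P10 and P19 the median was 0.31 over 12 ages. Both medians keep the P15 pair, in which pup c was higher in 8 members, with a median difference of 1.84. The weight of that pair in them was not tested. The points share their libraries, and no p is given.

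P15 pup c had the highest value of 29 libraries for 7 members (Chil3, Mrc1, Csf1r, Csf2ra, Csf2rb, Cd68 and Itgax), and the sum over the 9 members was 344 FPKM, against 108 FPKM in the other P15 pup. P28 pup c was among the highest 5 libraries for 7 members, had the highest Marco value and a sum of 254 FPKM. Without both libraries 4 members were called from prenatal to late alveolar, and Chil3 was still the 1 called from early to late alveolar. Of all genes tested, 4525 and 1513 of 14520 were then called. P10 pup a was below P10 pup f in all 9 members and had 4 members listed at 0.

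**Figure D4:**
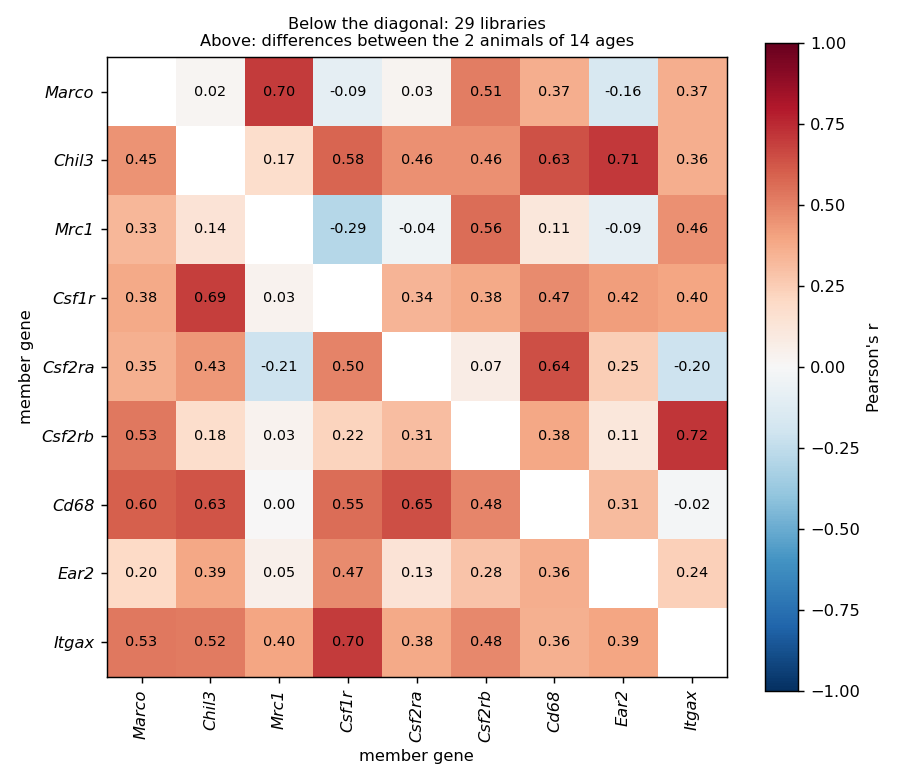
Pearson's r between the 9 genes on the log2(FPKM + 1) scale over 29 libraries, below the diagonal. Above it stand correlations of the differences between both animals of 14 ages, taken without subtracting the mean difference. Red marks positive and blue marks negative values. Below the diagonal the cells of Mrc1 with Csf1r, Csf2rb, Cd68 and Ear2 are the palest, and Csf1r with Itgax (0.70) and with Chil3 (0.69) are the darkest cells.

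Of other genes with a like course over 29 libraries, the 3 with the highest Spearman's rho were taken for the members given here. For Marco they were Havcr2 (rho = 0.81), Abcg1 (0.80), which encodes a cholesterol exporter, and Smpd1 (0.76), which encodes acid sphingomyelinase. For Chil3 they were Ceacam1 (0.85), Gpatch1 (0.79) and Plbd1 (0.79). Csf2ra had Rrbp1 (0.84), Sik3 (0.80) and Pmepa1 (0.79), and Itgax had Slfn2 (0.76), Cd69 (0.75), an early activation antigen of leukocytes, and Asap1 (0.75). For Csf1r they were Wipf1 (0.77), Os9 (0.77) and Sox7 (0.76). Csf2rb, Cd68 and Ear2 had lower best values, from 0.65 for Relt with Ear2 to 0.72 for Slc5a1 with Csf2rb. These values rank 14616 genes on the same libraries and carry no test.

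The ligands of the receptors were measured in the same septa. Csf2, the gene of GM-CSF, had medians of 1.87, 6.77, 3.32 and 2.28 FPKM from the prenatal to the late alveolar group and was not called in any stage comparison or in the age test. Csf1, the gene of M-CSF, had medians of 4.46, 6.11, 7.36 and 8.26 FPKM and was called higher in the late alveolar than in the prenatal group (1.12 on the log2 scale, SE 0.37, adjusted p = 0.0226). Il34 had medians of 1.46, 3.70, 2.58 and 3.41 FPKM and was not called. The transcription factor genes Spi1, which encodes PU.1, and Pparg, which is needed for alveolar macrophage lipid handling, were not called either, with medians of 1.46 and 3.21 FPKM in the prenatal group and 6.90 and 2.29 FPKM in the late alveolar group.

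Lists of related genes are read beside the share of all genes called, which was 15.9% at birth, 11.4% from early to late alveolar and 31% over the whole course. Of 15 genes of GM-CSF action and alveolar macrophage maturation 13 were tested. After birth 1 was called higher and 1 lower, which is 15.4% of the list and close to all genes. Between the early and late alveolar stages 4 were called higher (30.8%), and over the whole course 4 were called higher and 2 lower (46.2%). The median difference over the whole course was 0.57, against -0.16 over all genes. Atp6v0d2, a subunit of the vacuolar proton pump, had medians of 1.06, 11.1, 7.89 and 19.7 FPKM. It rose at birth by 2.72 on the log2 scale (SE 0.43, adjusted p = 7.22e-05) and had the lowest p of this list in the age test (adjusted p = 8.7e-07).

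Fabp4 and Fabp5, which encode fatty acid binding proteins, were called lower. Fabp4 had 4.70 to 16.3 FPKM in the embryos and was listed at 0 in 6 of 8 postnatal saccular libraries, a difference of -2.85 (SE 0.78, adjusted p = 0.0120). Fabp5 was lower in the late alveolar than in the prenatal group by -1.02 (SE 0.36, adjusted p = 0.0293). The call of Fabp5 was lost without any one of 4 libraries. Capillary endothelium and epithelium also express these genes. Without the 3 libraries rich in zeros the late against early count fell from 4 to 2.

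Of 30 genes of the M-CSF axis and the macrophage lineage 28 were tested. After birth 5 were called higher and 1 lower (21.4%), and over the whole course 10 were called higher and 1 lower (39.3%), with a median difference of 1.01. Lyz2, the lysozyme of macrophages that type 2 cells also express, rose at birth by 1.92 (SE 0.52, adjusted p = 0.0114) and again from the early to the late alveolar stage by 1.44 (SE 0.41, adjusted p = 0.0212). The second rise was not called without P15 pup c and P28 pup c, nor without the 3 libraries rich in zeros. Ptprc, which encodes the CD45 antigen of all leukocytes, had medians of 8.74, 10.0, 11.6 and 32.6 FPKM and rose in the late alveolar stage by 1.36 (SE 0.27, adjusted p = 9.44e-04), with each library left out too. Maf, which encodes a transcription factor, was the gene called lower, with medians of 38.7, 18.9, 23.5 and 9.49 FPKM and a difference over the whole course of -1.61 (SE 0.30, adjusted p = 1.48e-04).

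Of 16 genes of interstitial macrophages and monocytes 15 were tested. After birth 2 were called higher and 1 lower, which is 20% of the list. Over the whole course 3 were called higher and 1 lower (26.7%), below the share of all genes, with a median of 0.17. Nr4a1, which encodes an orphan nuclear receptor needed by patrolling monocytes, rose at birth from a median of 2.23 to 12.9 FPKM (2.19, SE 0.51, adjusted p = 0.00322). Cbr2, a carbonyl reductase gene also active in airway and alveolar epithelium, rose by 2.28 (SE 0.50, adjusted p = 0.00184). F13a1, the gene of coagulation factor XIII A, fell by 1.68 on the log2 scale (SE 0.40, adjusted p = 0.00426), from a median of 18.7 to 5.38 FPKM. Of 10 relatives of Ear2 and Chil3 only 3 were tested, and 1 (Chil1) was called higher after birth and 2 (Chil1 and Chia1) over the whole course. Chil1 encodes a chitinase-like protein, and its sign turned where E18.5 was the only prenatal age.

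Genes of other cell types were called beside the members. At birth 7 of 8 tested neutrophil genes of a list of 11 were called higher (87.5%), among them Ngp, Camp and Ltf, which encode granule proteins, and 4 of 8 were called lower in the early alveolar stage. The summed level of the neutrophil list was 51.1 to 153 FPKM in embryos, 227 to 616 in postnatal saccular, 56.2 to 361 in early alveolar and 14.3 to 390 in late alveolar libraries. Elane, the gene of neutrophil elastase, was at 0 in all libraries. Neutrophils also express Csf2rb, and their part in its higher postnatal saccular values was not tested.

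Of 9 tested dendritic cell genes of 10, 5 were called higher between the early and late alveolar stages (55.6%), and over the whole course 6 were called higher and 1 lower (77.8%). The lower gene was Itgae, with a difference of -1.30 (SE 0.48, adjusted p = 0.0371), and this call was lost under 6 other settings and without any one of 6 libraries. Cd74, the invariant chain of class II antigen presentation, had medians of 5.47, 11.5, 48.7 and 92.6 FPKM. Ccr7, the homing receptor of migrating dendritic cells, was listed at 0 in all 4 embryos and had a late alveolar median of 4.67 FPKM. The summed level of the dendritic cell list was 34.4 to 96.4 FPKM in embryos, 80.8 to 155 in postnatal saccular, 93.5 to 204 in early alveolar and 214 to 696 in late alveolar libraries, so that the late range lay above the early one. Cd74 alone ran from 57.8 to 574 FPKM in the late alveolar libraries. No gene of this list was at 0 throughout, but only 4 of the 10 reached an FPKM of 1 in at least 15 libraries. Dendritic cells also express Itgax and Csf2ra, and their part in the members' differences was not tested.

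Of 9 tested lymphocyte genes of 10, 1 was called higher between the early and late alveolar stages (11.1%). Over the whole course 3 were called higher and 0 lower (33.3%), and 6 were higher without the 3 libraries rich in zeros. Of all genes tested, 3.89% and 12.7% were called higher in these comparisons, and 11.4% and 31% in either direction. The median difference of the list over the whole course was 1.33, against -0.16 over all genes. In the age test 77.8% of the list was called, against 30.7% of all genes. The lymphocyte sum was 0.667 to 81.0 FPKM in embryos and 30.2 to 181 FPKM in late alveolar libraries. Of 9 mast cell, basophil and eosinophil genes 3 were tested, and Cpa3, a mast cell protease gene, was called lower over the whole course, though not with array weights. That list summed to 2.26 to 13.9 FPKM in embryos and 0 to 4.13 FPKM in late alveolar libraries, and Fcer1a was at 0 in all libraries.

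Lymphatic endothelium also expresses Mrc1. Of 6 lymphatic genes 2 were called higher at birth (Flt4 and Lyve1), and over the whole course 2 were higher and 2 lower (Prox1 and Mmrn1). The lymphatic sum was 84.7 to 150 FPKM in embryos and 163 to 405 FPKM in postnatal saccular libraries, and its part in the Mrc1 values was not tested. Of 6 blood endothelial genes 4 were called higher at birth and 5 over the whole course, and the sum was 296 to 713 FPKM in embryos and 629 to 1018 FPKM in postnatal saccular libraries.

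Epithelial and airway genes also differed at birth. Of 6 type 2 and 6 type 1 genes 4 each were called higher at birth and 2 each over the whole course. The type 2 sum was 2209 to 17199 FPKM in embryos and 8755 to 22220 FPKM in postnatal saccular libraries, and the type 1 sum was 113 to 778 and 854 to 1480 FPKM. Of 6 conducting airway genes 3 were called higher at birth, with sums of 198 to 1260 and 688 to 5121 FPKM, and over the whole course 3 were higher and 1 lower. Of 6 septal fibroblast genes 1 was higher (Npnt) and 1 lower (Pdgfra) at birth, with sums of 831 to 1098 and 683 to 1077 FPKM, and over the whole course 2 were higher and 1 lower. The shares of these cells in each capture were not measured, and their part in the members' differences was not tested.

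With E18.5 as the only prenatal age, which leaves 2 embryos, 5.81% of all genes were called at birth against 15.9% with both prenatal ages. The calls of Fabp4, Lyz2, Maf, Nr4a1, Cbr2, Camp, Lyve1 and Npnt were then lost, and those of Atp6v0d2, F13a1, Ngp, Ltf, Flt4 and Pdgfra held. Of the neutrophil list 4 of 8 were then called higher at birth, of the type 2 list 1 was higher (Sftpb) and 1 lower, and of the type 1 list 2 were higher. Over the whole course 3 of 9 dendritic cell genes were called higher and none lower, and the calls of Cpa3 and Prox1 were lost.

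**Figure D5:**
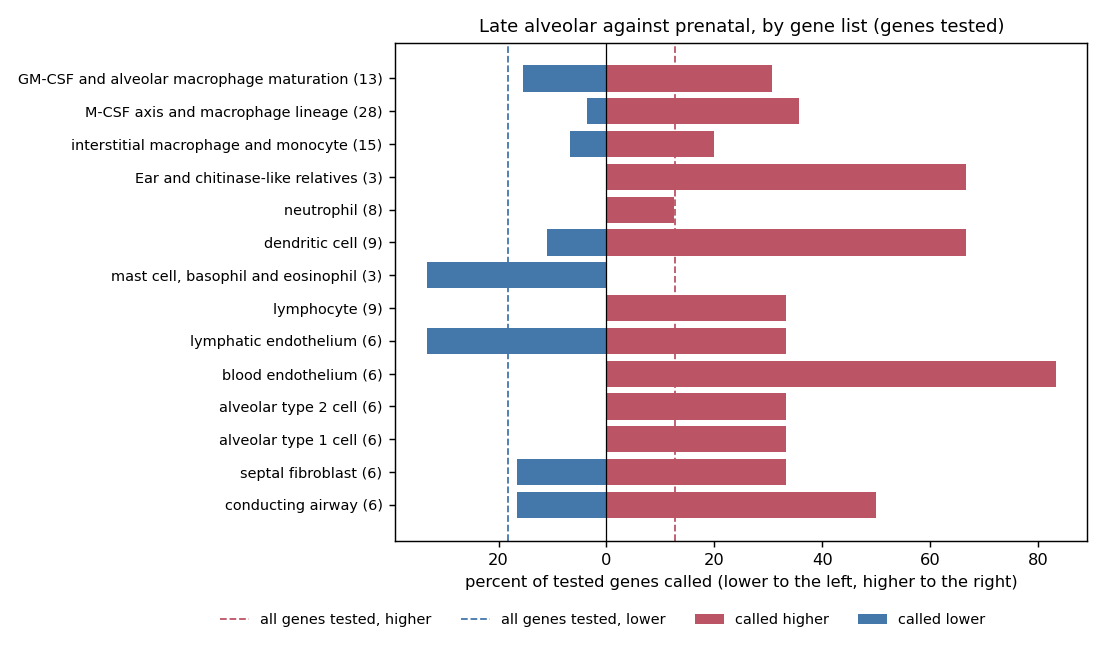
Percent of tested genes called higher (red, to the right) or lower (blue, to the left) in the late alveolar against the prenatal group for 14 gene lists, with the number of genes tested in brackets and dashed lines at the 12.7% and 18.3% of all genes called higher and lower. The dendritic cell list has 6 of 9 genes called higher and the neutrophil list 1 of 8.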

How the data were processed

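Septa were cut by laser capture, and RNA was sequenced by the submitters. Per their processing notes, STAR 2.5.1, Cufflinks 2.2.1 and genome mm10 were used. The authors deposited FPKM values, 24486 lines for 22779 gene IDs. For IDs on several lines, that of highest mean was kept. Settings and annotation are not given in the sources used here.

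Genes reaching an FPKM of 1 in 4 or more libraries were tested on log2(FPKM + 1), so differences of low genes are understated. The 4 groups were fitted together with limma 3.58.1 (empirical Bayes with a trend, R 4.3.3), with Benjamini-Hochberg adjusted p under 0.05. The age test was an F test of a natural spline with 3 degrees of freedom on the log2 of age counted from conception, birth being day 19. The steps were tested on simulated data, in which 200 of 14616 genes were changed at a time. That is fewer than were called at birth, late against early and by age, so recovery in these data may differ. Late against prenatal was not simulated. A log2 difference of 1 was recovered for 31% of changed genes at birth, 54% early against saccular, 46% late against early and 11% by age. For a difference of 2 these were 78%, 92%, 93% and 61%. A member not called may thus still differ. Fragments were estimated from the spacing of low values of 7716 genes with 1 transcript of at least 1500 bases, less 250 bases. In each library 67.7% to 78.4% of low values lay within 0.1 of a whole number, against 20% if evenly spread. Levels given for 3 fragments cover counting error only. Transcripts were compared with BLAST 2.17.0 on GENCODE vM21. Figures and correlations used Python 3.11.15.

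The members and lists were chosen with earlier results of these data known. All members are named. Of each list up to 4 called genes with the lowest p in the age test, and those called against the list's direction, were eligible. Ligands, Spi1, Pparg, near copies and genes named beside small counts were chosen after their values were seen. For members reaching an FPKM of 1 in 15 or more libraries, the 3 genes of highest Spearman's rho were taken. Some genes these rules chose are not reported here. Alternatives were another pseudocount, filter, scaling, weights, grouping, lines and samples.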

Additional observations from a re-analysis of the deposited data

Results flagged for a closer look

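Among 36 groups of values (9 members in 4 groups), 8 had a highest or lowest library farther from the rest than Dixon's 95% limit on the log2(FPKM + 1) scale. Chance flags about 1 in 20 groups.

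For Chil3, E18.5 embryo 4 stood above the other embryos with 0.836 FPKM, since the other 3 were at 0. P10 pup f stood above the early alveolar libraries with a Chil3 value of 23.9 FPKM, and P19 pup d stood below the late alveolar libraries at 0. For Mrc1, P10 pup a stood low with 1.52 FPKM and P19 pup f with 0.999 FPKM. For Csf1r, P19 pup d stood low with 1.51 FPKM. For Cd68, P1.5 pup d stood low with 0.909 FPKM. For Ear2, P19 pup d stood low with 1.37e-06 FPKM. Of these 8 values, 5 are of P10 pup a, P19 pup d and P19 pup f, which list many expressed genes at 0. The part of that in these values was not tested.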

How the results depend on the processing

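No paired analysis was possible because pup letters and embryo numbers name different animals at each age. Without the 3 libraries rich in zeros, 5 members were called at birth against 2 with all, 2 from early to late alveolar against 1, 7 over the whole course against 6 and 9 by age against 6. Of all genes tested, 2954, 1461, 4679 and 4851 of 14534 were then called, against 2327, 1660, 4534 and 4493 of 14616 with all libraries. At birth, 1 (Csf2ra, with Csf2rb lost) was called at a pseudocount of 0.1, without a filter, with median ratio scaling or with E18.5 alone. There were 4 called with array quality weights and 5 in a fit of only the 2 groups. Over all genes these settings called, in that order, 1981 of 14616, 2349 of 17900, 2326 of 14568, 840 of 14448, 2636 of 14616 and 2602 of 14616. With E18.5 alone 2 were called over the whole course, where 14.5% of all genes were. In postnatal libraries 1 was called by age, where 2193 of 14349 genes were. Of 36 pairs, 6 passed there by Pearson's r and 1 by Spearman's rho. Leaving out 1 library gave 1 to 3 called at birth, 0 to 0 and 1 to 1 in the next 2 comparisons, 4 to 7 over the whole course and 2 to 7 by age. Over all genes these fits called 1375 to 2585 at birth, 3364 to 4818 over the whole course and 3313 to 4588 by age.

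Signs turned for values that were not called. Early against saccular, Cd68 was -0.19 with weights, -0.0045 without the zero-rich libraries and -0.21 with the stage divided after P7, Mrc1 was 0.050, 0.18 and 0.13, and Itgax was 0.017 with quantile normalization and 0.082 without the zero-rich libraries. Late against early, Itgax was -0.049 at a pseudocount of 0.1, Csf2ra 0.00096 with median ratio scaling and 0.16 divided after P7, Ear2 -0.017 with weights and -0.74 divided after P7, and Csf2rb -0.10 with weights and -0.12 without the zero-rich libraries. Without P15 pup c and P28 pup c, an alternative added after seeing the data, Ear2 was -0.069, Csf2rb -0.21, Csf1r -0.039 and Itgax -0.17. Over the whole course Ear2 was -0.76 with E18.5 alone. With 1 library left out, early against saccular values ran from -0.25 to 0.18 for Cd68, -0.17 to 0.18 for Mrc1 and -0.23 to 0.082 for Itgax, and late against early from -0.42 to 0.70 for Ear2 and -0.26 to 0.10 for Csf2ra. Among called genes of the lists, E18.5 alone turned Lyz1 (-0.46 at birth, -1.14 over the course), Chil1 (-0.76 and -0.65) and Slc34a2 (-0.11 at birth). The causes were not tested.

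Late against early, 34.2% of the calls over all genes were higher, 43.4% with median ratio scaling and 46.2% with quantile normalization. The estimated depth limits Marco, Chil3 and Itgax in embryos, where a few fragments decide a value.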

Other observations

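Adgre1, Siglecf, Ly6g, Ear3 and Chil5 matched no row and were not analysed here. The E18.5 embryos differed from each other in the members, with a sum over the 9 of 109 FPKM in embryo 4 and 44.1 FPKM in embryo 3, against 30.6 and 30.9 FPKM at E16.5. Embryo 4 had higher values than embryo 3 in 5 of 9 members. Ear2, whose values are uncertain, made most of that gap, and without it the sums were 42.6 and 28.9 FPKM. With 2 embryos at each age, no test between E16.5 and E18.5 was made for the members.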
